A study of Mus musculus with 4 samples.

Results

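The cells described here are tumour B cells that carried transcripts of Fcrl5 or S100a6 and none of Fcer2a. They were chosen from the expression libraries of both genotypes by UMI counts, that is, by counted transcript molecules. A member had at least 200 detected genes, at most 10% mitochondrial UMIs, at least 3 UMIs of Cd79a, fewer than 5 of Jchain, none of Fcer2a and at least 1 of Fcrl5 or S100a6. This gave 173 cells out of 1679 kept barcodes, of which 140 of 874 came from the knockout and 33 of 805 from the control.

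Memory B cells are antigen-experienced B cells that persist after a response and can turn into antibody-secreting plasma cells when antigen returns. They arise inside or outside germinal centres, may keep IgM or switch to IgG or IgA, and often carry somatic mutations in the variable regions of their receptor. Fcrl5 encodes an inhibitory Fc receptor-like protein found on mouse marginal zone and B-1 cells and on atypical memory B cells. S100a6 encodes a small calcium-binding protein found in many cell types and, among B cells, mainly in activated and memory cells. Fcer2a encodes CD23, a low-affinity IgE receptor that marks mouse follicular B cells, so the Fcer2a-positive B cells of the same libraries serve as the comparison. Cd79a is a signalling subunit of the B cell receptor, and Jchain encodes the joining chain of secreted IgM and IgA, abundant in plasma cells.

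The study asked what happens to B cells in a tumour when Blimp-1, the product of Prdm1 that plasma cell differentiation requires, is deleted from the B lineage. Knockout recipients were Prdm1 f/f CD19cre, and control recipients were Prdm1 f/f with no cre. All were C57BL/6 females of 12 to 16 weeks bearing subcutaneous MC38 tumours, a mouse colon carcinoma line. Tumours were taken on day 18 from 11 recipients per genotype, and sorted viable B220+ and CD138+ cells were combined and used for 1 expression and 1 B cell V(D)J library per genotype. The cre acts in the B lineage. Cre carriage and Prdm1 loss come together, since no control carried cre. The proportions of B220+ and CD138+ cells that were mixed are not given in the sources used here, and they can set any share of all barcodes.

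The knockout library held 897 barcodes with 5463434 UMIs (median 3966 per barcode), and the control library held 816 barcodes with 6976374 UMIs (median 5851). They had 3 barcode sequences in common, none of them a member. With 1 library of pooled mice for each genotype, nothing here can be checked across replicates, and the 95% intervals cover no more than counting error. File dates also differ between the genotypes, and an effect of batch cannot be told apart from one of genotype.

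Members made up a larger share of B cells in the knockout than in the control library. Among cells with at least 3 Cd79a UMIs and fewer than 5 of Jchain, members were 140 of 304 in the knockout (46.1%, Clopper-Pearson interval 40.3 to 51.8) and 33 of 241 in the control (13.7%, 9.62 to 18.7). Fcer2a-positive cells showed the opposite order, with 75 in the knockout (24.7%) and 126 in the control (52.3%). The remaining 89 knockout cells (29.3%) and 82 control cells (34.0%) had none of the 3 transcripts. Thinning each cell to 1500 UMIs, so that depth no longer set the chance of seeing a transcript, gave 101 of 269 knockout B cells (37.5%, 31.7 to 43.6) and 10 of 216 control B cells (4.63%, 2.24 to 8.35). The order was the same at equal depth.

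**Figure D1:**
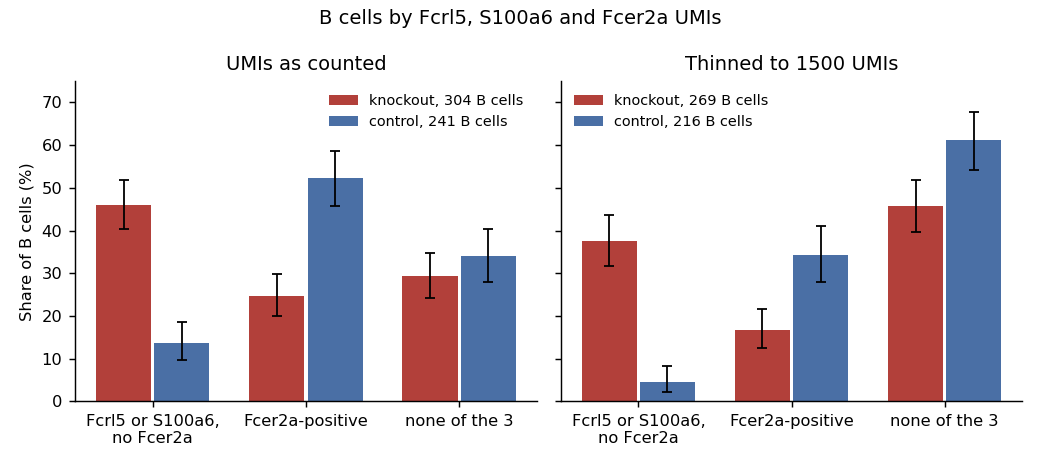
Share of B cells (vertical axis, percent) with Fcrl5 or S100a6 and no Fcer2a, with Fcer2a, or with none of the 3 transcripts, in the knockout (red) and control (blue) libraries, as counted (left) and after thinning to 1500 UMIs per cell (right). Bars are shares and whiskers 95% Clopper-Pearson intervals; in both panels the intervals of the member share, 46.1% and 13.7% as counted, do not overlap between the genotypes.

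Many members stood close to the edge of the rule. A single UMI of Fcrl5 and S100a6 together was all that 36 of the 140 knockout and 14 of the 33 control members had. Just outside it, 7 knockout and 5 control cells would have passed but for exactly 1 UMI of Fcer2a. For Jchain, 3 knockout and 24 control cells would have passed but for their level, with a lowest value of 5 UMIs in the knockout and 341 in the control. Cd79a set no close edge, since no cell would have passed but for a count of 2, and 3 knockout members had exactly 3. The highest Fcrl5 count of a member was 6 UMIs in the knockout and 3 in the control, and the highest S100a6 count was 84 in the knockout and 45 in the control.

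The 2 transcripts differ as B cell marks. Fcrl5 (chromosome 3, 87435777 to 87500678, GRCm38.p6) was not seen in any of the 557 knockout and 515 control barcodes without a Cd79a UMI, which had median depths of 5292 UMIs in the knockout and 7545 in the control. It was present in 22.7% of knockout and 9.96% of control B cells, whose median depths were 2779.5 UMIs in the knockout and 3062 in the control. S100a6 (chromosome 3, 90612894 to 90614414) was present in 73.4% of the knockout and 86.0% of the control barcodes without Cd79a, and in 40.1% of knockout and 10.8% of control B cells. No group of barcodes free of S100a6 was at hand, so how much of the single-UMI signal is free RNA was not tested. Fcer2a-positive cells, which share the same free RNA, carried S100a6 in 14.7% of knockout and 6.35% of control cells. Of the members, 29 in the knockout and 15 in the control had Fcrl5 alone, 75 knockout and 13 control members had S100a6 alone, and 36 knockout and 5 control members had both.

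Members were B cells by the markers outside the rule. Ms4a1, which encodes CD20, was detected in 96.4% of knockout and 93.9% of control members and in none of the barcodes without Cd79a. Its level was 1168 counts per 1000000 UMIs (CPM) in knockout and 1027 in control members. Its ratio to the Fcer2a-positive cells of the same library was 1.17 (1.01 to 1.35) in the knockout and 0.985 (0.841 to 1.15) in the control. Cd22, an inhibitory sialic acid receptor, stood at ratios of 0.936 (0.624 to 1.43) in the knockout and 0.907 (0.560 to 1.45) in the control, and Siglecg, a related receptor prominent on B-1 cells, at 1.04 (0.788 to 1.39) in the knockout and 0.748 (0.506 to 1.09) in the control. Thus 3 of the 6 listed marks of the cells were within 1.5-fold of their level in Fcer2a-positive B cells. Fcrl5 and S100a6 are in the rule, and Plac8 is described with the other genes. On the receptor side, members were a mixture of cells with and without V region differences, and most were IgM. For that reason they are called Fcrl5 or S100a6 B cells here, not memory cells.

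Some member barcodes carried transcripts of another lineage. At least 5 UMIs of a marker list of T, NK, myeloid, plasma, stromal, tumour or red cells were found in 11 of 140 knockout members (7.86%) and 4 of 33 control members (12.1%). These barcodes were deep, with medians of 8271 UMIs in the knockout and 12819.5 in the control, against 3052 in the other knockout members and 5760 in the other control members. In knockout members the NK list summed to 469 CPM, the T cell list to 173 and the macrophage list to 257, with C1qa, C1qb, C1qc and Cd14 at 0. In control members the NK list summed to 458 CPM, the T cell list to 328 and the macrophage list to 1884, of which 328 of 477 UMIs came from 1 barcode. The neutrophil, mast cell and red cell lists were at 0 in members of both genotypes. Fcer2a-positive cells held 7 such barcodes among 75 in the knockout and 0 among 126 in the control. Expression values are over all members unless stated, and some are also given without these barcodes.

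The receptors, which played no part in choosing the cells, set members apart from Fcer2a-positive cells. An Ig heavy chain was recovered for 131 of 140 knockout members and 25 of 33 control members. Recovery was uneven in the control, where Fcer2a-positive cells had a heavy chain in 35 of 126 (27.8%), against 71 of 75 (94.7%) in the knockout. The median reads behind a member's heavy chain were 5228 in the knockout and 126 in the control, although the median UMIs were 22 in the knockout and 23 in the control. Control values on receptors therefore rest on few cells.

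Clonal relatives were seen among knockout members. Cells with the same IGHV gene, IGHJ gene and CDR3 nucleotides, the part of the heavy chain built at the V-D-J junction, were counted as a clone. In the knockout, 28 of 131 members (21.4%, 14.7 to 29.4) fell into 8 clones of at least 2 members, and the biggest held 10 members (7.63%). With Fcrl5 alone in the rule, in place of either transcript, the knockout share was 3.33% (0.406 to 11.5), and with S100a6 alone in it the share lay within the interval over all members. In the control, 0 of 25 members fell into such a clone, which allows a share of up to 12.0%. Among Fcer2a-positive cells 0 of 71 in the knockout and 0 of 35 in the control did, which allows up to 4.23% in the knockout and 8.57% in the control. A clone share rises with the number of cells sampled, and these groups were not compared at equal cell numbers. No heavy CDR3 was found in both genotypes.

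Allowing CDR3 sequences of equal length to differ at up to 15% of their bases, with the same IGHV, IGHJ and light-chain V genes, and keeping cells of identical CDR3 together, joined 35 of the 131 knockout members (26.7%, 19.4 to 35.2) into 7 lineages. Of these, 2 held 11 members each. The first used IGHV1-9, IGHJ2 and IGKV5-39, and all 11 of its cells were members with IgM heavy chains. All 11 carried S100a6 and 3 carried Fcrl5. Its heavy CDR3 took 7 forms of 42 bases. They are printed to show how the relatives differ, 5′ to 3′ as in the deposited contigs, with capitals at bases that differ from the first form. The heavy-chain locus lies on chromosome 12 (113258768 to 116009954, GRCm38.p6), where Ighv1-9 is annotated at 114583569 to 114583862 and Ighv6-3 at 114391712 to 114392010.
IGHV1-9 CDR3 1: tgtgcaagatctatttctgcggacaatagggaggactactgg
IGHV1-9 CDR3 2: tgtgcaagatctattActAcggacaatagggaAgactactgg
IGHV1-9 CDR3 3: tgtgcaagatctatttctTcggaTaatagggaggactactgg
IGHV1-9 CDR3 4: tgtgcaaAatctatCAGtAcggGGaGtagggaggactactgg
IGHV1-9 CDR3 5: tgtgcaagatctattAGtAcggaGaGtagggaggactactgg
IGHV1-9 CDR3 6: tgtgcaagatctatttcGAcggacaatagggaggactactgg
IGHV1-9 CDR3 7: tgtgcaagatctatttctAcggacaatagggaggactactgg
The first form was found in 3 cells, forms 2 and 3 in 2 cells each, and the others in 1 cell each. Between 1 and 8 bases separated the other forms from the first. The outermost bases of both ends were the same in all 7 forms, and the differences lay between them. Outside the CDR3, the V regions of these 11 cells took 9 forms, and 42 of 285 aligned positions varied among them.

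The other lineage of this size, with IGHV6-3, IGHJ3 and IGKV14-111, held 15 cells, of which 11 were members and 4 were B cells with none of the 3 transcripts. All 15 were IgM. Its CDR3 took 2 forms of 30 bases, the first in 14 cells and the second in 1.
IGHV6-3 CDR3 1: tgcacagacccgggttcggtagtgggctgg
IGHV6-3 CDR3 2: tgcacagacccgggtAcggtagtgggctgg
Here the junction was nearly uniform while the V regions took 6 forms, with 21 of 291 positions varying. Another lineage, with IGHV1-69, IGHJ2 and IGKV17-121, consisted of 4 IgM members that shared 1 CDR3 of 48 bases and had 3 V forms.
IGHV1-69 CDR3 1: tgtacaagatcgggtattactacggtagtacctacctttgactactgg
The other 4 lineages held 2 or 3 members each, and every cell of the 7 lineages was IgM.

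V gene use followed these lineages. The commonest heavy V genes of knockout members were IGHV6-3 in 16 of 131 cells (12.2%), IGHV1-9 in 13 (9.92%) and IGHV4-1 in 10 (7.63%), with 44 IGHV genes in all. Counting each lineage once left IGHV4-1 first, in 9 of 103 lineages (8.74%). Control members most often used IGHV1-53, in 5 of 25 cells (20%), followed by IGHV1-26 and IGHV1-72 in 3 each. Fcer2a-positive knockout cells used IGHV1-26 and IGHV5-17 in 5 of 71 cells each.

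Differences within the V region were frequent in members and rare in Fcer2a-positive cells. Each heavy V region (framework 1 to framework 3) was compared with the commonest sequence of the same IGHV gene, taken over clones of both libraries. A difference from it is not shown to be a somatic mutation. In the knockout, 69 of 119 member chains differed at 1 or more bases (58.0%, 48.6 to 67.0), against 2 of 66 Fcer2a-positive chains (3.03%, 0.369 to 10.5). In the control, 14 of 24 member chains differed (58.3%, 36.6 to 77.9), against 0 of 34 Fcer2a-positive chains, which allows up to 8.82%. The intervals of members and Fcer2a-positive cells did not overlap in either library, while over all chains the members of the genotypes had nearly the same share.

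Over all chains, the size of the differences was also similar. The median was 2 bases in knockout and 2.5 in control members, and the maximum 26 in the knockout and 21 in the control. No Fcer2a-positive chain differed at more than 2 bases. Taking 1 chain per lineage lowered the knockout member share to 43 of 91 (47.3%) and left the control share as it was. The knockout median was then 0 bases and the control median stayed at 2.5. The similar medians therefore held only with relatives of a lineage counted each time. The complementarity-determining regions 1 and 2, the loops that contact antigen, differed at 2.18% of their bases in knockout and 1.90% in control members, against 1.22% (knockout) and 1.17% (control) in the frameworks. The encoded amino acid was altered in 213 of 309 differing codons in the knockout (68.9%) and 54 of 80 in the control (67.5%). These codon counts and base shares run over every chain. A difference shared by relatives of a lineage is therefore counted once for each cell. With differences present in members that kept IgM or IgD, at 59 of 103 chains in the knockout (57.3%) and 12 of 17 in the control (70.6%), they were not confined to switched cells.

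**Figure D2:**
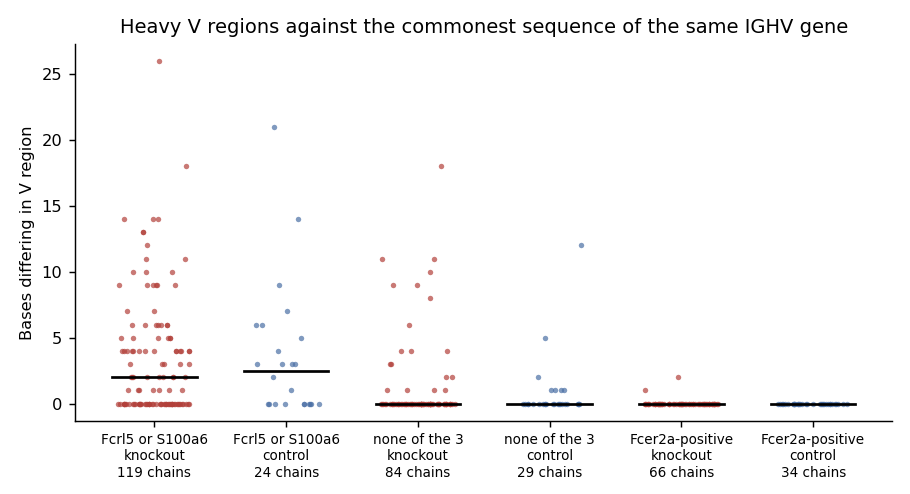
Heavy V region differences from the commonest sequence of the same IGHV gene, per chain (points, in bases) with the median of each group (bars), for members, B cells with none of the 3 transcripts and Fcer2a-positive B cells of the knockout (red) and control (blue). Differences of 1 or more bases were found in 58.0% of knockout and 58.3% of control member chains, against 3.03% and 0% of Fcer2a-positive chains.

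Most members had not switched class. Among knockout members with a heavy chain, IgM was carried by 113, IgD by 1, IgG2b by 6, IgG2c by 3, IgG3 by 3 and IgA by 5, with none for IgG1 or IgE. Among 21 control members with a constant gene call, IgM was carried by 16, IgD by 1, IgG1 by 1, IgG2b by 1 and IgG2c by 2, with none for IgG3, IgA or IgE. Switched cells were thus 17 of 131 in the knockout (13%, 7.74 to 20) and 4 of 21 in the control (19.0%, 5.45 to 41.9), and these intervals overlap. In Fcer2a-positive cells, 2 of 71 knockout chains (2.82%, 0.343 to 9.81) were switched, and 0 of 29 control chains, which allows up to 10.3%. Lambda light chains were found in 9 of 131 knockout and 2 of 25 control members. The median heavy CDR3 length was 42 bases in the knockout and 39 in the control.

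The transcriptome of members was set against that of Fcer2a-positive B cells within each library, so that batch and genotype were shared by both sides. The same cells and UMIs chose the groups, so these are descriptions. UMIs were summed over 140 members and 75 Fcer2a-positive cells in the knockout (657347 UMIs in members and 256435 in Fcer2a-positive cells) and over 33 members and 126 Fcer2a-positive cells in the control (253119 in members and 405646 in Fcer2a-positive cells). The median depth of a knockout cell was 3124.5 UMIs in members and 2693 in Fcer2a-positive cells. In the control it was 5951 in members and 2967.5 in Fcer2a-positive cells. There were 1702 genes with at least 50 UMIs in each library's comparison. Of these, 94 were at least 1.5-fold higher in members in both libraries (5.52%) and 102 at least 1.5-fold lower in both (5.99%). With barcodes of other lineages left out, 1508 genes were measured, of which 73 were past 1.5-fold higher in both libraries and 85 lower.

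Genes of resting follicular cells were lower in members. Of a list of 15 follicular or naive B cell genes, 12 were measured, 10 were past 1.5-fold lower in both libraries and none was higher. With barcodes of other lineages left out, 8 of 11 were past it lower. Their median log2 ratio was -1.08 in the knockout and -1.69 in the control, against 0.08 in the knockout and 0.00 in the control over all genes measured. Vpreb3, a surrogate light chain gene kept by transitional and follicular cells, had 27.4 CPM in knockout members and 257 CPM in Fcer2a-positive knockout cells, a ratio of 0.106 (0.0594 to 0.181). In the control it had 75.1 CPM in members and 335 in Fcer2a-positive cells, a ratio of 0.224 (0.131 to 0.363). Ighd, the IgD heavy chain exons, stood at 0.149 (0.100 to 0.218) times in the knockout and 0.0925 (0.0415 to 0.180) in the control. These values run with the IgM and IgD calls of the contigs, where IgD was carried by 1 knockout member and 8 Fcer2a-positive knockout cells.

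Ccr7, the receptor for lymph node chemokines, stood at 0.321 (0.255 to 0.402) in the knockout and 0.474 (0.355 to 0.627) in the control, or 0.524 (0.401 to 0.687) in the knockout and 0.567 (0.421 to 0.755) in the control without barcodes of other lineages. Some transcription factors of mature resting B cells were lower. Of these, 5 of 18 measured were past 1.5-fold lower in both, namely Ebf1, Bach2, Foxp1, Mef2c and Klf2, or 3 of 17 without barcodes of other lineages. Ebf1, Bach2, Foxp1 and Klf2 are also in the follicular or naive list and were counted there. Bach2, a repressor of plasma cell differentiation, had ratios of 0.376 (0.213 to 0.662) in the knockout and 0.276 (0.126 to 0.545) in the control. Klf2, which controls lymphocyte trafficking genes, had 0.588 (0.513 to 0.675) in the knockout and 0.546 (0.473 to 0.627) in the control. Of the transcription factors, only Tcf4 was past the fold the other way, at 1.59 (1.11 to 2.35) in the knockout and 2.46 (1.64 to 3.74) in the control.

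Immediate early genes, which respond within minutes to signalling or to handling of the tissue, were also lower. Of 12 measured, 9 were past 1.5-fold lower in both libraries and none higher. The medians over the genes measured in each library were -1.13 in the knockout and -1.08 in the control. Fos had 113 CPM in knockout members and 386 in Fcer2a-positive cells (0.292, 0.213 to 0.398), and in the control 111 CPM in members and 500 in Fcer2a-positive cells (0.221, 0.143 to 0.329). Jun, its partner in the AP-1 factor, had ratios of 0.440 (0.334 to 0.580) in the knockout and 0.295 (0.193 to 0.437) in the control. Dusp1, a phosphatase that ends MAP kinase signalling, had 0.215 (0.136 to 0.333) in the knockout and 0.343 (0.183 to 0.606) in the control, the control value being 0.204 (0.0791 to 0.443) without barcodes of other lineages. Among the first 12 lower were also Fchsd2, Cnn3, Cd55, Junb, Pde4b and Serpinb1a, with ratios between 0.175 and 0.446 apart from Junb at 0.503 in the control.

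Among genes higher in members, Apoe was first when ranked by the interval bound nearest to 1. It encodes apolipoprotein E, a lipid carrier (chromosome 7, 19696244 to 19701310). Its level was 1319 CPM in knockout members and 211 in Fcer2a-positive cells, a ratio of 6.26 (4.76 to 8.41). In the control it was 2086 CPM in members and 227 in Fcer2a-positive cells, a ratio of 9.20 (7.36 to 11.6). Macrophages also express Apoe at high levels, and without barcodes of other lineages the ratios were 8.08 (5.88 to 11.4) in the knockout and 7.14 (5.65 to 9.10) in the control.

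Plac8, listed as a mark of these cells, encodes a small cysteine-rich protein (chromosome 5, 100551589 to 100572253). It had 2437 CPM in knockout members and 792 in Fcer2a-positive cells (3.08, 2.66 to 3.58), and in the control 2264 CPM in members and 483 in Fcer2a-positive cells (4.69, 3.98 to 5.54). Txn1, encoding the redox protein thioredoxin, followed with 3.13 (2.11 to 4.82) in the knockout and 5.0 (3.49 to 7.30) in the control. Psap, the precursor of the lysosomal saposins, had 2.38 (1.91 to 2.98) in the knockout and 3.34 (2.75 to 4.06) in the control. Grn, encoding progranulin, had 208 CPM in knockout members against 2 UMIs in Fcer2a-positive cells, a ratio of 26.7 (7.26 to 223), and 7.10 (3.93 to 13.7) in the control. Mzb1, a chaperone of antibody assembly in marginal zone, B-1 and plasma cells, had 2.13 (1.74 to 2.61) in the knockout and 2.81 (2.30 to 3.44) in the control. Pld4, Dnajc7 and Ass1 completed the group at ratios of 2.21 to 4.37.

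Some leading genes changed in size when the barcodes of other lineages were left out, and stayed past 1.5-fold in both libraries. Lgals3, a galectin abundant in macrophages, had 281 CPM in knockout and 707 in control members, with ratios of 2.67 (1.78 to 4.17) in the knockout and 47.8 (21.5 to 132) in the control. Without those barcodes they were 2.30 (1.27 to 4.51) in the knockout and 7.48 (2.94 to 22.6) in the control. Ifitm3, an interferon-induced membrane protein, had 236 CPM in knockout members against 89.7 in Fcer2a-positive cells, and 427 in control members against 0 UMIs, at least 57.7-fold higher against a floor of 3 UMIs over the group. Without those barcodes the ratio of Ifitm3 was 7.86 (2.56 to 39.2) in the knockout and at least 8.16 in the control. Gapdh, a glycolytic enzyme, had 2.41 (1.77 to 3.34) in the knockout and 3.42 (2.59 to 4.55) in the control, or 2.15 in the knockout and 2.12 in the control without them. It belonged to a glycolysis list of which 6 of 8 measured genes were past 1.5-fold higher in both libraries, and 3 of 7 without barcodes of other lineages. Those barcodes were also the deepest. With them left out, Itgb1, Ifi30, Rilpl2 and Fcgr2b entered the first 12 higher genes. Fcgr2b, the inhibitory IgG receptor of B cells, then had ratios of 2.02 (1.45 to 2.88) in the knockout and 2.34 (1.67 to 3.30) in the control. Itgb1, an integrin chain raised on memory cells, then had 3.11 (1.70 to 6.23) in the knockout and 5.30 (3.11 to 9.38) in the control.

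**Figure D3:**
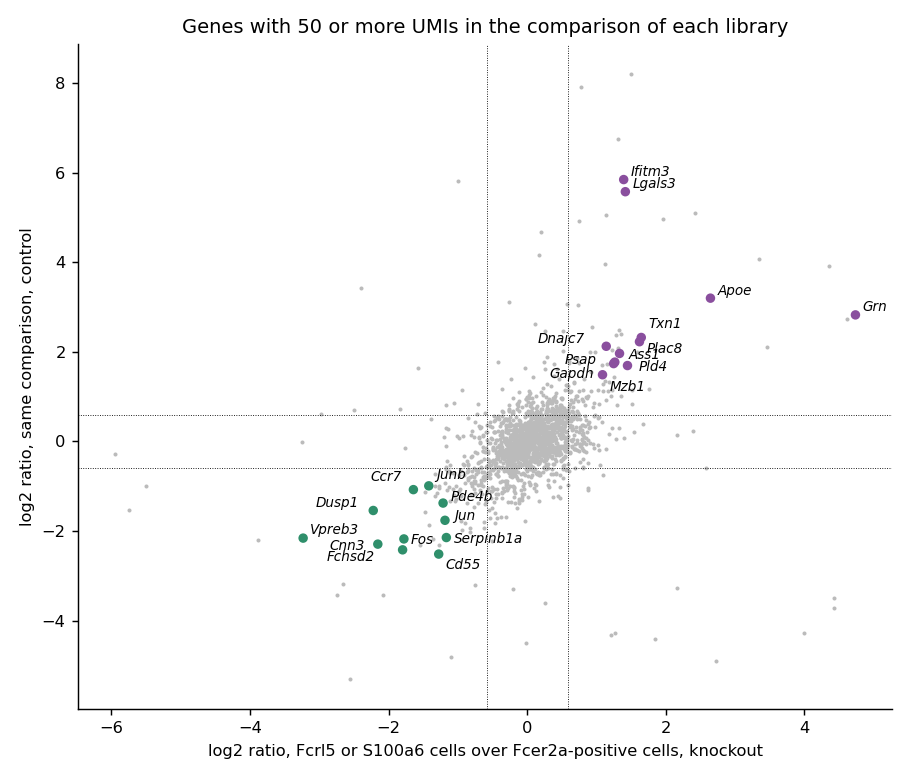
Log2 ratio of CPM in members over Fcer2a-positive B cells, in the knockout (horizontal axis) and the control (vertical axis), for the genes with at least 50 UMIs in both comparisons, without the genes of the rule and with a count of 0 set to 3. Purple and green points are named genes higher and lower in both, and dotted lines mark 1.5-fold. Apoe (6.26 in the knockout and 9.20 in the control) lies in the upper right and Vpreb3 (0.106 in the knockout and 0.224 in the control) in the lower left.

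A list of 14 memory B cell genes gave few measured members at this depth. Of 6 measured, Ahnak and Itgb1 were past 1.5-fold higher in both libraries, and Ccr6, a chemokine receptor, was past 1.5-fold lower at 0.660 (0.398 to 1.12) in the knockout and 0.394 (0.203 to 0.715) in the control. Others had too few UMIs in at least 1 library to be counted. In the knockout, Cd80, a costimulatory ligand, had 0.607 (0.245 to 1.59) and Il9r, an interleukin receptor, 0.724 (0.269 to 2.14). Their control ratios were 6.41 (0.634 to 316) for Cd80 and 2.20 (0.807 to 6.31) for Il9r. Without barcodes of other lineages, the knockout ratio was 4.71 for Cd80 and 0.655 for Il9r. Zbtb20, a transcription factor of memory and plasma cells, was also among the genes with too few UMIs. It had 3.37 (1.80 to 6.98) in the knockout and 2.98 (1.5 to 6.17) in the control. Zbtb32, which limits memory recall responses in mice, had 4.53 (1.83 to 14.5) in the knockout and 23.2 (5.88 to 201) in the control, and Cd44, an adhesion receptor of antigen-experienced lymphocytes, 4.23 (1.84 to 11.9) in the knockout and 4.37 (2.13 to 9.67) in the control. Bhlhe41, a factor of B-1 cells and of some memory cells, had 6.24 (1.59 to 53.8) in the knockout and 9.21 (3.15 to 36.7) in the control. No gene of a germinal centre list reached the 50-UMI minimum in both comparisons.

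Calcium-binding, annexin and cytoskeleton genes, the group that S100a6 itself belongs to, had 6 of 14 measured genes past 1.5-fold higher in both libraries and none lower. Without barcodes of other lineages this was 5 of 11. S100a10 had 811 CPM in knockout members and 495 in Fcer2a-positive cells (1.64, 1.35 to 2.00), and in the control 1079 CPM in members and 530.0 in Fcer2a-positive cells (2.03, 1.70 to 2.44). Interferon-induced genes had 6 of 10 past the fold and none lower, and 3 of 7 without those barcodes. The median of the interferon-induced genes was 0.73 in the knockout and 1.93 in the control. Ly6a, which encodes Sca-1, had 1.68 (1.49 to 1.89) in the knockout and 3.37 (2.96 to 3.86) in the control, and was just under 1.5 in the knockout without barcodes of other lineages. Zbp1, a sensor of nucleic acids, had 2.34 (1.35 to 4.35) in the knockout and 4.10 (2.33 to 7.5) in the control. Most antigen presentation genes stayed within 1.5-fold. Of 12 class II genes measured, Ifi30, a lysosomal reductase, was past the fold higher, and H2-Oa and H2-Ob, the chains of the inhibitory H2-O complex, were past it lower. Neither of these was past it in both libraries without barcodes of other lineages. Of 14 class I genes, none was past the fold in both libraries.

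**Figure D4:**
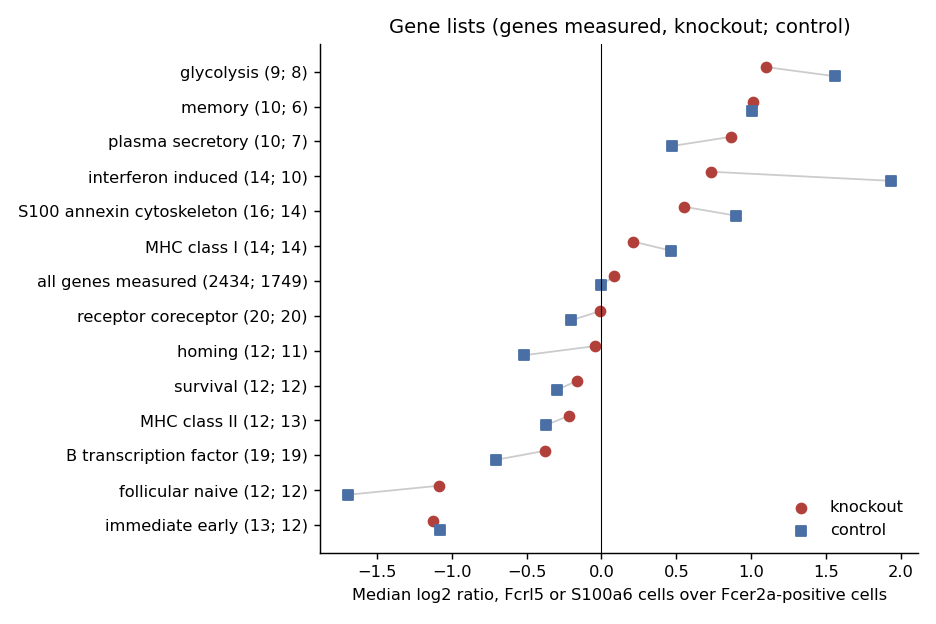
Gene lists in members over Fcer2a-positive B cells, as the median log2 ratio (horizontal axis) of the genes of each list measured in the knockout (red circles) and in the control (blue squares), with both numbers of genes beside the name. Immediate early (-1.13 and -1.08) and follicular or naive genes (-1.08 and -1.69) lie below 0, and glycolysis (1.10 and 1.56) and interferon-induced genes (0.73 and 1.93) above it.

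Knockout members were next set against control members, which were deeper (median 5951 UMIs, against 3124.5 in knockout members). The targeted gene comes first. Prdm1 (chromosome 10, 44437174 to 44528558) had 15 UMIs in 14 knockout members and 1 UMI in the control members, a ratio of 5.78 (0.889 to 243). UMI counts per gene do not show which exons were present, so this does not check the deletion.

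Most genes of the rule and the marks were within 1.5-fold. Fcrl5 had 163 CPM in knockout and 122 in control members (1.33, 0.884 to 2.05), and S100a6 had 1267 CPM in knockout and 849 in control members (1.49, 1.28 to 1.74). Plac8 had a ratio of 1.08 (0.978 to 1.19), Ms4a1 1.14 (0.987 to 1.31), Cd22 1.08 (0.703 to 1.70) and Cd79a 0.940 (0.871 to 1.02). Without barcodes of other lineages S100a6 was past the fold, at 1.54 (1.29 to 1.86). Higher S100a6 in the knockout was not confined to members. In Fcer2a-positive cells its ratio was 3.51 (2.40 to 5.21), or 1.82 (1.14 to 2.90) without barcodes of other lineages. Plac8 had 1.64 (1.34 to 2.00) in Fcer2a-positive cells. Jchain, held under 5 UMIs by the rule, had 4 UMIs in knockout and 7 in control members (0.220, 0.0472 to 0.866). Siglecg was past the fold, with 284 CPM in knockout and 166 in control members (1.71, 1.22 to 2.46), against a ratio of 1.23 (0.887 to 1.70) in Fcer2a-positive cells.

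Of 2426 genes with at least 50 UMIs over the members of both libraries, 317 were at least 1.5-fold higher in the knockout (13.1%) and 187 at least 1.5-fold lower (7.71%). Several of the extremes rested on single barcodes. Gzmc, a granzyme of cytotoxic lymphocytes, had 1727 UMIs in knockout members, 1238 of them in 1 cell, against 3 in control members (222, 75.7 to 1076). Gzmd, Gzme, Gzmf, Gzmb, Xcl1 and Ifitm1 stood beside it among the first 12 higher. On the lower side, C1qa, C1qb and C1qc had no UMI in knockout members, and 50, 87 and 78 UMIs in 1 control cell, while Ccl4 had 19 UMIs in knockout members against 376 in control members, 365 of them in 1 cell. Lyz2, Fabp5, Cd68 and Ftl1 were also among the first 12 lower. Gzmb, the C1q genes, Lyz2 and Cd68 are in the NK and macrophage marker lists whose sums are given above. Leaving out the top cell of each gene left 83 genes lower and 340 higher. This takes 1 of 33 control cells but 1 of 140 knockout cells, with the UMI totals kept. It therefore tends to raise the ratios of all genes, and cannot show how many rested on 1 cell.

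Without barcodes of other lineages, 129 knockout and 29 control members remained, and 1889 genes were measured. Of these, 264 were higher (14.0%) and 161 lower (8.52%) in the knockout. The first 12 in each direction then rested less often on single barcodes, although control counts were often small. Cd24a, the heat-stable antigen of immature and activated B cells, had 482 CPM in knockout and 181 in control members (2.66, 1.87 to 3.89). Its counts came from 84 of 129 knockout and 15 of 29 control cells. In Fcer2a-positive cells the ratio was 0.768 (0.567 to 1.03).

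Foxp1, a transcription factor of mature B cells, had 357 CPM in knockout and 176 in control members (2.03, 1.41 to 3.0), against 0.994 (0.781 to 1.26) in Fcer2a-positive cells. Bank1, a scaffold protein of B cell receptor signalling, had 507 CPM in knockout and 267 in control members (1.90, 1.41 to 2.60), against 1.09 (0.859 to 1.39). Srsf7, a splicing factor, had 339.8 CPM in knockout and 156 in control members (2.18, 1.48 to 3.30), against 0.980 (0.696 to 1.37). The interval of each of these 3 in members lay above that in Fcer2a-positive cells. They were named because their ratio in members ranked high, a choice that itself favours such a gap. Whether the ratios differ between the kinds of B cell was not tested. Hmgb2, a chromatin protein raised in dividing cells, had a ratio of 3.32 (2.09 to 5.57), with 86 of its 176 knockout UMIs in 1 cell. Marcks, Nsmce4a, Cyp4f18, Hnrnpa0, Ero1lb, Nolc1 and Pa2g4 made up the rest, at ratios of 2.18 to 5.19. The member and Fcer2a-positive intervals overlapped for Marcks, Cyp4f18, Hnrnpa0, Ero1lb, Nolc1 and Pa2g4, and lay apart for Nsmce4a and Hmgb2. Hnrnpa0 had 2.18 (1.48 to 3.30) in members and 1.72 (1.25 to 2.355) in Fcer2a-positive cells. In control members Marcks had only 4 UMIs, Nsmce4a and Nolc1 5 each, and Ero1lb 7.

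Among genes lower in knockout members, Cxcr3, a chemokine receptor of type 1 inflammation also found on T-bet-positive B cells, had 64.5 CPM in knockout and 267 in control members (0.242, 0.153 to 0.379). It came from 11 knockout and 13 control cells. Cd72, an inhibitory co-receptor, had 120 CPM in knockout and 342 in control members (0.350, 0.244 to 0.5), against 0.815 (0.540 to 1.21) in Fcer2a-positive cells. Cd81, a tetraspanin, had 299.9 CPM in knockout and 634 in control members (0.473, 0.372 to 0.603), against 1.01 (0.722 to 1.39). Lgals1, encoding galectin-1, had 215 CPM in knockout and 719 in control members (0.298, 0.231 to 0.384), and Ifi27l2a, an interferon-induced gene, had 1581 CPM in knockout and 2902 in control members (0.545, 0.489 to 0.607). Fcer1g, Blvrb, Plbd1, Sema4d, Itm2c and Ptms had ratios of 0.305 to 0.377, and Ccl4 rested on 1 control cell. For Fcer1g, 31 of 42 knockout UMIs and 25 of 52 control UMIs came from 1 cell of each library. For Plbd1, 13 of 30 control UMIs came from 1 cell. The order of Cd72 differed by kind of member when barcodes of other lineages were kept. With Fcrl5 alone it had 218 CPM in knockout and 464 in control cells. With S100a6 alone it had 107 CPM in knockout and 60.2 in control cells, the latter from 6 UMIs. Cells with Fcrl5 alone were 20.7% of knockout and 45.5% of control members.

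Tbx21, which encodes T-bet, the factor of age-associated and atypical memory B cells, had 13 UMIs in knockout and 19 in control members (0.263, 0.120 to 0.562), below the 50-UMI minimum. It belongs to an atypical or age-associated list of 8 genes, of which Cxcr3, Cd72 and Zeb2 were measured. Cxcr3 and Cd72 were past 1.5-fold lower, and without barcodes of other lineages all 3 were. Other genes of that list under the minimum had ratios above 1 over all members, with Itgam at 1.80 (0.501 to 9.75) and Itgax at 1.16 (0.207 to 11.7). Lair1 had 10 UMIs in knockout and 0 in control members. Without barcodes of other lineages, Itgam was at 0.881 (0.201 to 5.28) and Itgax at 0.377 (0.0274 to 5.21). Lair1 was then at 0.377, with its control count of 0 set to 3. Fcrl5, also of that list, is given above, and had 1.23 (0.815 to 1.90) without those barcodes. The 3 measured genes of the list had a median log2 ratio of -1.21, or -1.52 without those barcodes. Over all genes measured it was 0.03 with and 0.02 without those barcodes. Class II presentation genes were lower in the knockout in 12 of 12 measured, with a median of -0.24, and 2 of the 12 were past 1.5-fold lower, against 7.71% of all genes. Over all genes measured, 1157 of 2426 were lower. In Fcer2a-positive cells 12 of 13 class II genes were lower in the knockout, with a median of -0.29. Plasma cell and secretory genes had 4 of 10 past the fold higher and none lower, against 13.1% of all genes past it higher. Hspa5, the chaperone BiP, had a ratio of 2.01 and Hsp90b1, another chaperone of the endoplasmic reticulum, 2.02, or 1.61 and 1.56 without barcodes of other lineages. Then 2 of 8 were past the fold higher, against 14.0% of all genes.

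**Figure D5:**
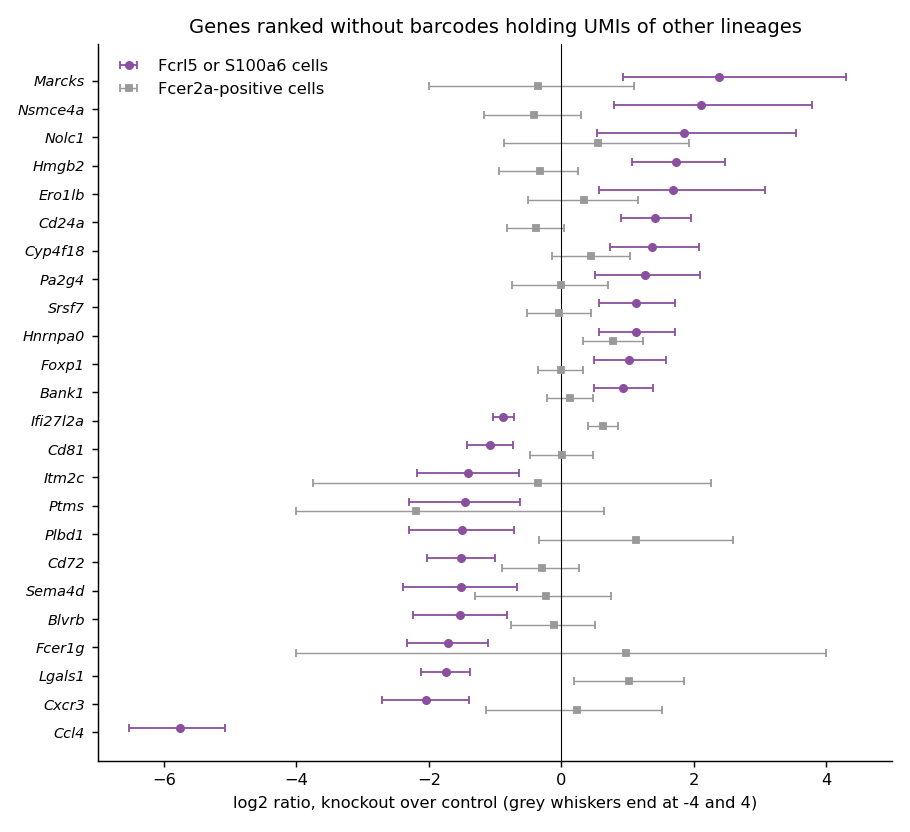
Knockout over control ratio of CPM in members (without barcodes of other lineages) and in Fcer2a-positive B cells for the first 12 genes each way, as log2 ratios with 95% counting intervals. As ratios, Cd24a (2.66 and 0.768), Bank1 (1.90 and 1.09) and Foxp1 (2.03 and 0.994) lie higher in members, and Cxcr3 (0.242 and 1.18), Lgals1 (0.298 and 2.04) and Ifi27l2a (0.545 and 1.54) lie lower.

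Members with Fcrl5 alone were also set against members with S100a6 alone within each library. Of 511 genes measured in both, 10 were past 1.5-fold higher (1.96%) and 17 past 1.5-fold lower (3.33%) in both libraries. Without barcodes of other lineages, 8 were lower. With the rule applied to data thinned to 1500 UMIs per cell, 0 were higher and 1 was lower. Cells with Fcrl5 alone had more Ccr7 (1.88, 1.28 to 2.76 in the knockout and 3.71, 1.98 to 7.45 in the control) and more Cd72 (2.04, 1.25 to 3.35 in the knockout and 7.70, 3.29 to 22.0 in the control). Plac8 was also higher, at 1.46 (1.31 to 1.64) in the knockout and 1.47 (1.17 to 1.85) in the control, short of the fold. Some transcripts of other lineages were higher in cells with S100a6 alone. Barcodes of other lineages were not confined to them in the knockout. Leaving those barcodes out lowered the members with Fcrl5 from 65 to 60 in the knockout, and left 20 in the control. Nkg7, of cytotoxic lymphocytes, had no UMI in cells with Fcrl5 alone and 176 CPM in knockout and 572 CPM in control cells with S100a6 alone, and Tyrobp had ratios of 0.186 (0.0902 to 0.346) in the knockout and 0.0894 (0.0450 to 0.161) in the control. Anxa2, an annexin, had 0.134 (0.0422 to 0.328) in the knockout and 0.169 (0.0832 to 0.313) in the control, and Crip1 0.286 (0.227 to 0.356) in the knockout and 0.650 (0.514 to 0.821) in the control.

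V region differences and class switching of these groups overlapped in their intervals. V region differences were found in 10 of 24 knockout chains with Fcrl5 alone (41.7%, 22.1 to 63.4), 38 of 65 with S100a6 alone (58.5%, 45.6 to 70.6) and 21 of 30 with both (70%, 50.6 to 85.3). In the control the counts were 7 of 10 with Fcrl5 alone, 4 of 10 with S100a6 alone and 3 of 4 with both. Switched chains, in the same order of groups, were 5 of 28, 6 of 71 and 6 of 32 in the knockout, and 0 of 9, 2 of 8 and 2 of 4 in the control.

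Finally, members with a V region difference (69 knockout and 14 control cells) were set against members without (50 knockout and 10 control cells). This split uses the receptor and not the transcripts of the rule. Of 499 genes measured in both libraries, 9 were past 1.5-fold higher (1.80%) and 3 past 1.5-fold lower (0.601%) in cells with a difference. Plac8 was lower, with 1807 CPM in knockout cells with a difference and 3337 in those without (0.541, 0.485 to 0.604), and in the control 1708 CPM with and 4189 without (0.408, 0.340 to 0.489). Ddt, D-dopachrome tautomerase, was lower as well, at 0.305 (0.181 to 0.493) in the knockout and 0.181 (0.0860 to 0.353) in the control.

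Both genes kept their direction without barcodes of other lineages, with Plac8 at 0.570 in the knockout and 0.501 in the control, and Ddt at 0.382 in the knockout and 0.128 in the control. Zbtb20 had 58 UMIs in knockout cells with a difference and 24 in those without (2.75, 1.68 to 4.62), and in the control 19 UMIs with and 1 without (10.9, 1.73 to 452). It was below the 50-UMI minimum in the control. The ratio of Lgals3 over all members was 3.70 in the knockout and 4.07 in the control, but 1.51 in the knockout and 0.405 in the control without barcodes of other lineages. Fth1, Sat1, Lgals1, Ctsb and Prdx5, also higher over all members, were likewise under 1.5 in at least 1 library without those barcodes. Fth1 then had 1.42 in the knockout and 0.915 in the control, while AY036118 stayed past the fold at 1.53 and 2.08. Fcrl5 was present in 31 of 69 knockout members with a difference and 23 of 50 without, and S100a6 in 59 of 69 with and 36 of 50 without. In the control, Fcrl5 was present in 10 of 14 with a difference and 4 of 10 without, and S100a6 in 7 of 14 with and 7 of 10 without.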

How the data were processed

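The deposited expression files hold UMI counts per gene and barcode, and the deposited contig tables hold read and UMI counts with V, D, J and constant gene calls per contig. Cell Ranger 6.0.0 and GRCm38 (mm10) come from the submitters' processing notes. The files list barcodes already called as cells. Everything else was computed here with Python 3.11.15, NumPy 2.4.6, SciPy 1.17.1, pandas 2.3.3 and Scanpy 1.11.5, and was tested on simulated data.

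UMIs were summed per group and library and given per 1000000 UMIs of the group (CPM). CPM carried exact Poisson intervals, ratios exact conditional binomial intervals and shares Clopper-Pearson intervals, all at 95% and for counting error only. PCR duplicates are removed by UMIs in expression, and reads behind contigs are not independent molecules. No test was made, since each genotype is 1 library. A gene was measured with at least 50 UMIs over both groups and counted past 1.5-fold, and a count of 0 was set to 3 over the group. The share that a count of 0 allows is likewise 3 counts of the total, not the Clopper-Pearson limit. Shares were recomputed after thinning each cell to 1500 UMIs. Positions are from the RefSeq annotation of GRCm38.p6.

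Members and the 21 described gene lists were chosen with earlier results of these data known, and 1 list gene had no match. Named genes were the first 12 each way (first 8 for the Fcrl5 and S100a6 groups) ranked by the interval bound nearest to 1. Genes of the rule, immunoglobulin, T cell receptor, mitochondrial, ribosomal and predicted genes were left out of the ranking. Also named were list members past the fold or with most UMIs, Prdm1, all isotypes, and the leading IGHV genes and clones. The ranking without barcodes of other lineages, the V region measure, the lineage rule, the split by V region, and the naming of Tbx21, Bhlhe41, Zbtb20, Zbtb32 and Ddt were chosen after values had been seen. Scrublet, as run in Scanpy, marked 3 of 874 knockout and 1 of 805 control barcodes, and 4 knockout members had 2 heavy chains. These barcodes were kept, as the rule sets no doublet filter, and left out as an alternative. A V region was compared where at least 2 clones shared the commonest sequence of its IGHV gene (408 of 436 chains, 50 of 68 genes). Germline V exons were not used here. Values of some genes are not reported.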

Additional observations from a re-analysis of the deposited data

Results flagged for a closer look

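Lgals1 had opposite knockout over control ratios in the 2 kinds of B cell, 0.54 (0.462 to 0.642) in members and 3.89 (2.43 to 6.4) in Fcer2a-positive cells. Without barcodes of other lineages the ratios were 0.298 and 2.04. Ifi27l2a likewise had 0.62 (0.567 to 0.685) in members and 1.61 (1.39 to 1.87) in Fcer2a-positive cells, and 0.545 and 1.54 without those barcodes. With 1 library per genotype the difference between these ratios was not tested.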

How the results depend on the processing

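Of 192 values recomputed for the main counts and shares, 162 stayed within 1.5 times the main count or within the interval, and 30 did not. The member share of B cells was 31.2% in the knockout and 7.47% in the control with at least 2 UMIs of Fcrl5 or S100a6, 21.4% and 8.30% with Fcrl5 alone in the rule, 36.5% and 7.47% with S100a6 alone, and 37.5% and 4.63% in the thinned data. With Fcrl5 alone in the rule, clones of at least 2 held 3.33% of knockout members. With 1 chain per lineage, V regions differed in 47.3% of knockout members. Under thinned data for the rule, 206 genes were past the fold higher in the knockout, 41 higher and 47 lower than in Fcer2a-positive cells in both libraries, and 0 higher and 1 lower between the Fcrl5 and S100a6 groups. Between those groups, 5 were higher with at least 2 UMIs in the rule, and 8 were lower without barcodes of other lineages. With at least 20 UMIs per gene, 954 were higher and 560 lower between genotypes, and 250 higher and 217 lower against Fcer2a-positive cells, against 106, 78, 47 and 47 with at least 100. At 2-fold, these were 130, 54, 43 and 34. Leaving out each gene's top cell left 83 lower and 340 higher between genotypes, a setting that tends to raise ratios because the control members are fewer. Of 1450 values for named genes, 117 moved and 5 reversed. The knockout over control ratio of Lyz2 was 19.1 with Fcrl5 alone in the rule and 8.06 in the thinned data, that of Fcer1g was 1.48 and 3.55, and that of Ftl1 was 1.15 in the thinned data. The cause was not tested. A rule on Fcrl5 or S100a6 alone leaves no comparison between those groups. The planned comparison with germline V exons was not run. No paired analysis was possible because each genotype has 1 library. The 33 control members and their 24 compared heavy chains set the width of most intervals.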

Other observations

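B cells with none of the 3 transcripts had V region differences and class switching at shares between those of members and of Fcer2a-positive cells. V region differences were found in 19 of 84 knockout chains (22.6%) and 7 of 29 control chains (24.1%) of these cells. Switched chains were 8 of 87 in the knockout (9.20%) and 3 of 27 in the control (11.1%). In the knockout, 6 of 87 of their heavy chains (6.90%) belonged to a clone of at least 2 such cells, and in the control 2 of 30 (6.67%), where no member and no Fcer2a-positive cell was in a clone. They were 89 knockout and 82 control cells, with median depths of 2537 and 2842.5 UMIs, below those of members.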
